A study of Mus musculus with 24 samples.

Results

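The slow fibre contractile genes Tnnt1, Tnni1, Tnnc1, Tpm3, Myl2, Myl3, Mb and Myh7b were followed across mouse gastrocnemius, and these 8 genes were found by symbol and gene identifier among the 55401 genes of the mRNA counts. Male C57BL6 mice arrived at an age of 4 weeks (young) or 10 weeks (adult), were kept for an acclimation week, and were then scalded over 25% of their skin or handled as sham controls. Burned mice were given resuscitation fluid, whereas in sham mice, which were anaesthetised and given pain relief, scald and fluid were both left out, so that the effects of the 2 cannot be told apart in any comparison of burn with sham. Muscle was taken 24 h later from 3 mice in each of the 4 groups, named young sham, adult sham, young burn and adult burn. Every mouse gave 1 poly-A RNA library and 1 small RNA library, matched here by the group and number in the labels. The mRNA libraries held 4392605 to 5688512 counts each and the miRNA libraries 1704531 to 3149396, and the 8 genes together took between 0.0975% and 0.28% of a library's mRNA counts. The study's RNA quality report gave no RNA integrity number for any sample. Its ratio of large to small ribosomal RNA varied between samples and was highest in adult sham replicate 1. The part of RNA quality in the levels below was not tested.

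Skeletal muscle fibres are slow or fast, and the types differ in the version of nearly every protein of the contractile apparatus. Calcium binds troponin C, troponin I lets go of actin, and troponin T moves tropomyosin aside so that myosin heads can pull, with a regulatory and an essential light chain on each myosin neck. Slow fibres work for long periods on oxidative metabolism and hold much myoglobin. The gastrocnemius of the mouse is largely fast, with slow fibres gathered in its deep part, and several slow genes (Tnnc1, Myl2, Myl3, Myh7) are also used by the heart.

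One member carries a miRNA within it. The hairpin of mir-499 lies in an intron of Myh7b at chr2:155622880-155622958 on the plus strand, and that of mir-208b lies in an intron of the slow myosin heavy chain gene Myh7 at chr14:54975700-54975776 on the minus strand (GRCm38, Gencode M21). The mature sequences are shown because both miRNAs are read out beside their host genes below, and capitals mark the seed, bases 2 to 8 (RefSeq, GRCm38.p6).
mmu-miR-499-5p: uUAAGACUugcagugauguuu
mmu-miR-208b-3p: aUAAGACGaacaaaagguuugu
The seeds share 6 of 7 positions.

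The troponin genes lie at chr7:4504570-4516382 (Tnnt1, ENSMUSG00000064179.13, minus strand), chr1:135779434-135810989 (Tnni1, ENSMUSG00000026418.16, plus) and chr14:31208312-31211729 (Tnnc1, ENSMUSG00000091898.8, plus). Tpm3 (ENSMUSG00000027940.18) lies at chr3:90072649-90100902, Myl2 (ENSMUSG00000013936.12) at chr5:122100951-122113472, Myl3 (ENSMUSG00000059741.13) at chr9:110741861-110769798 and Myh7b (ENSMUSG00000074652.3) at chr2:155611212-155634307, all on the plus strand, and Mb (ENSMUSG00000018893.15) lies at chr15:77015487-77050670 on the minus strand. RefSeq start sites were matched for all 8 genes, and the 250 bases before each start were searched for 4 motifs. Both Myl2 windows (chr5:122092474-122092723 and chr5:122092939-122093188) lie upstream of the Gencode start given above, so the bases just before that start were not searched. The motif of TEAD factors, searched as CATTCC on both strands, was found before 2 of the 8 genes, Myl3 and Tnnc1, and in 12.6% of all 32851 windows of that length. The E-box, CANNTG, which reads the same on both strands, was found before all 8 genes and in 66.2% of all windows, the MEF2 motif before 0 of the 8 and in 2.92%, and the TATA box, searched on the sense strand alone, before Tnnt1 and in 7.59%. A gene was counted if any of its windows matched, and Tnni1, Myl2 and Tpm3 had 2 windows and Mb 3. The shares of all windows count each window singly, so the counts of genes cannot be set against them as like values.

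The 200 bases furthest upstream in the windows of Myl3 (chr9:110763428-110763627, plus strand) and Tnnc1 (chr14:31208062-31208261, plus strand) are given to show where the TEAD motif stands before these genes, with the motif on either strand in capitals (RefSeq, GRCm38.p6). The window of Myl3 lies inside the longer gene model of Gencode.
Myl3: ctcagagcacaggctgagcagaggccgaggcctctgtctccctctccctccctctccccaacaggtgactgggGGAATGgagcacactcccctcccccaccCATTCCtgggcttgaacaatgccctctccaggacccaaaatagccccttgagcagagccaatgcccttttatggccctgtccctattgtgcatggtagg
Tnnc1: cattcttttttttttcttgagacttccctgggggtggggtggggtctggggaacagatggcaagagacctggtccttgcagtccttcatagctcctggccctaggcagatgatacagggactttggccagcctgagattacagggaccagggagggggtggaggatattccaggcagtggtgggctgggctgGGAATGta
A match describes these letters and shows no binding.

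A pair of libraries stood apart in the 8 genes. Young burn replicate 2 correlated with the others of its group at r = 0.939 and 0.947 over the tested genes, against 0.975 to 0.983 for every other pair of libraries within a group. The study left 1 young burn animal out of its clustering as an outlier and showed replicates 1 and 3, so comparisons are given from the other 11 libraries first, with the counts from all 12 after them. Adult sham replicate 1 was not set apart by its correlation with its group (r = 0.981 and 0.98) but was low in most of the slow genes, as described below. Levels are CPM, counts scaled to a common library total, with TMM factors over the 12 libraries. Fold changes are from edgeR's quasi-likelihood test, with Benjamini-Hochberg adjusted p over the 12651 genes tested in 11 libraries (12408 in 12) and calls at 0.05. All 8 genes passed the filter on low counts.

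The label was checked against markers. The 5 skeletal muscle markers summed to at least 79780 CPM in every library. Of the 8 heart markers, Nppa, Nppb, Mybpc3 and Myl7 had at most 2 counts in any library, Myh6 at most 9 and Tnni3 at most 11, while Tnnt2 (8 to 38) and Myl4 (48 to 85), which developing limb muscle also makes, had more. Divided by exon length, the mean level in adult sham fell from Mb at 628 ± 118 CPM per kb (SD, n = 3) through Myl3 at 206 ± 60.9, Myl2 at 158 ± 48.9, Tnnc1 at 120 ± 74.8, Tnnt1 at 62.7 ± 36.4, Tpm3 at 32.1 ± 15.8 and Tnni1 at 23.8 ± 15.2 to Myh7b at 0.635 ± 0.316. In that order the ranges over the 3 adult sham libraries overlapped between all neighbours except at both ends, Mb above Myl3 and Tnni1 above Myh7b.

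The troponin complex was read through Tnnt1, Tnni1 and Tnnc1, and the filament it acts on through Tpm3. Tnnt1, slow troponin T, which ties the complex to tropomyosin, was at 166, 222 and 125 CPM in young sham, 205, 62.5 and 158 in young burn, 54.2, 147 and 214 in adult sham and 72.4, 70.0 and 68.9 in adult burn (replicates 1 to 3). The 3 adult burn values lay within 4 CPM of each other, and 1 adult sham value lay below them all. Tnni1, slow troponin I, the inhibitory subunit, was at 49.2, 105 and 48.3 CPM in young sham, 115, 22.6 and 74.6 in young burn, 23.2, 109 and 124 in adult sham and 43.9, 40.9 and 39.4 in adult burn. Here too adult sham replicate 1 was below every adult burn library and the other two adult sham libraries were far above them. Tnnc1, the calcium-binding troponin of slow fibres and heart, was at 81.8, 163 and 92.6 CPM in young sham, 161, 29.4 and 95.9 in young burn, 36.4, 156 and 183 in adult sham and 73.3, 82.2 and 65.0 in adult burn. Tpm3, whose slow muscle form lies along the actin filament and whose other forms are made outside muscle, was at 150, 247 and 166 CPM in young sham, 252, 93.3 and 177 in young burn, 87.5, 227 and 272 in adult sham and 142, 129 and 136 in adult burn. All 4 genes thus had the same lowest libraries, young burn replicate 2 and adult sham replicate 1.

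The light chains and myoglobin differed from this in adult sham. Myl2, the slow regulatory light chain, was at 336, 413 and 244 CPM in young sham, 364, 123 and 330 in young burn, 202, 340 and 384 in adult sham and 177, 165 and 138 in adult burn. Myl3, the slow essential light chain, was at 312, 422 and 268 CPM in young sham, 423, 129 and 341 in young burn, 276, 495 and 489 in adult sham and 212, 227 and 172 in adult burn. Adult sham replicate 1 was again the lowest of its group in both, yet stayed above all adult burn libraries. Mb, myoglobin, which stores oxygen, was at 594, 495 and 248 CPM in young sham, 717, 364 and 745 in young burn, 824, 848 and 1139 in adult sham and 619, 313 and 434 in adult burn. Its 3 adult sham libraries were the highest of the 12, and replicate 1 was close to replicate 2. Myh7b, a myosin heavy chain better known as the host of mir-499 than for its protein in mouse limb muscle, had between 3 and 26 counts per library, or 1.71, 4.86 and 3.90 CPM in young sham, 4.30, 0.913 and 2.66 in young burn, 1.86, 5.89 and 4.88 in adult sham and 1.85, 0.542 and 2.23 in adult burn. At this depth its values carry much counting error.

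**Figure D1:**
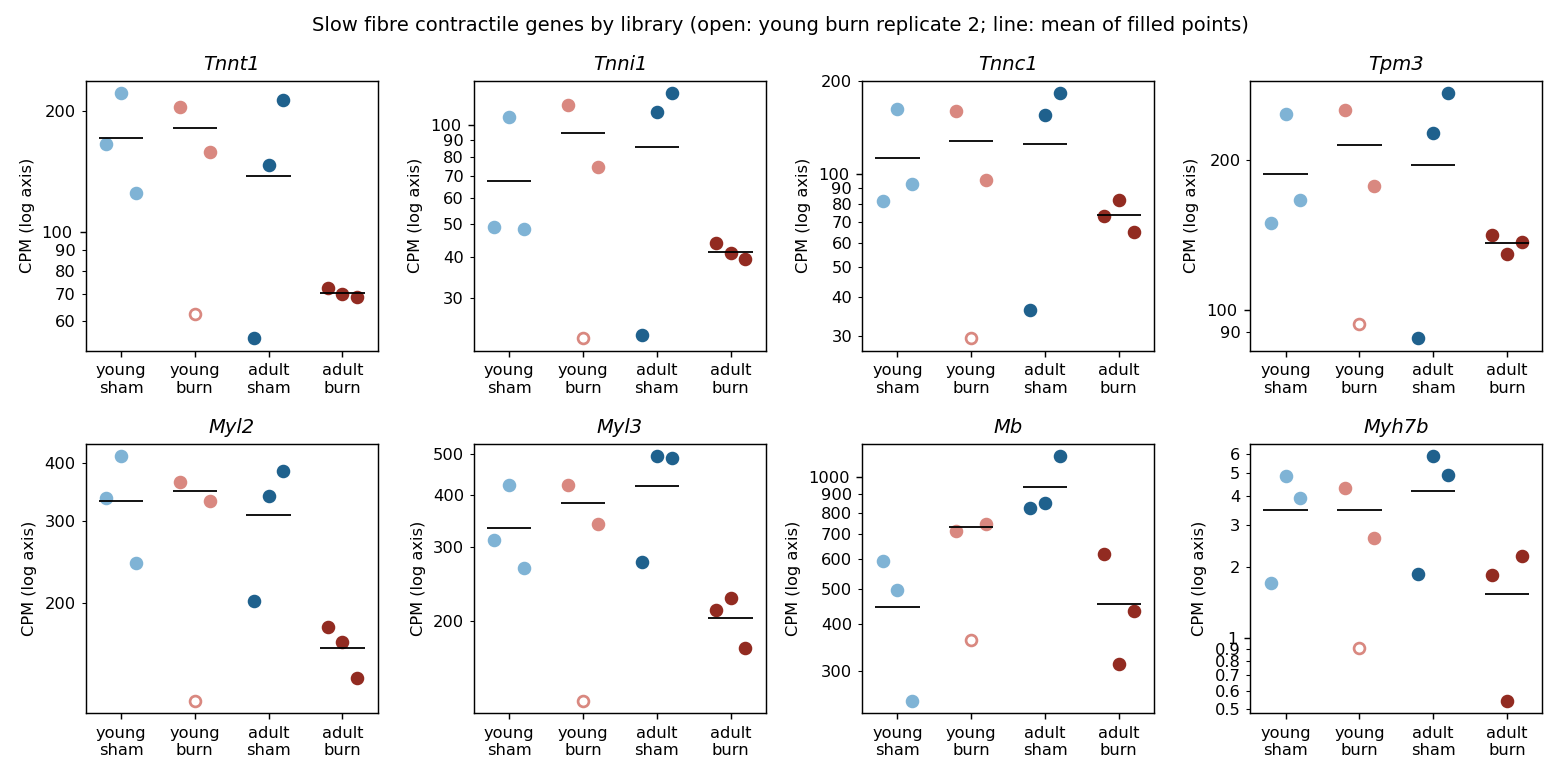
CPM of each of the 8 slow fibre contractile genes (log axes) in the 12 mRNA libraries, with 1 point per mouse, replicates 1 to 3 from left to right, an open point for young burn replicate 2 and a line at the mean of the filled points. The adult burn points are tightly grouped for Tnnt1, Tnni1 and Tpm3, while adult sham replicate 1 falls far below the other adult sham points in Tnnt1, Tnni1, Tnnc1 and Tpm3.

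The spread among sham libraries was wide for these genes. In adult sham the highest library exceeded the lowest 5.37-fold for Tnni1, 5.02-fold for Tnnc1, 3.95-fold for Tnnt1, 3.17-fold for Myh7b and 3.11-fold for Tpm3, but 1.91-fold for Myl2, 1.79-fold for Myl3 and 1.38-fold for Mb. In young sham the ratio lay between 1.58-fold (Myl3) and 2.85-fold (Myh7b). In adult burn it was 1.05-fold for Tnnt1, 1.09-fold for Tpm3, 1.12-fold for Tnni1, 1.27-fold for Tnnc1, 1.29-fold for Myl2 and 1.31-fold for Myl3. It was wider there for Mb (1.98-fold) and Myh7b (4.11-fold). On the log2 CPM scale the SD pooled over both sham groups had a median of 0.71 over the 8 genes (0.41 to 1.05), against a median of 0.20 over all tested genes. Tnni1 had a larger sham SD than 99.7% of tested genes, Tnnc1 than 99.6%, Tnnt1 than 98.7% and Myl3, the least spread of the 8, than 86.9%. In adult burn the median SD of the 8 was 0.18 and that of all tested genes 0.18. Mb (SD 0.49) and Myh7b (SD 0.80) were more spread in adult burn than 91.4% and 98.2% of tested genes.

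The 8 genes varied together between mice of the same group. After each group's mean was taken out, the correlation of log2 CPM over the 11 libraries was above 0 in all 28 pairs of the 8 genes, with a median r of 0.85. It was highest between Tnni1 and Tpm3 (r = 0.99) and between Tnni1 and Tnnc1 (r = 0.99), and Myl2 with Myl3 reached r = 0.95. Mb followed the others least, with r between 0.13 (Myh7b) and 0.57 (Myl2). With 2 fast fibre genes Mb had larger values, r = 0.85 with the heavy chain Myh2 and r = -0.91 with the troponin Tnni2. These points share library, depth and scaling and are a description. Per kb of exon, Myl3 stood at 3.87 times Tnnc1 in adult sham replicate 1, against 1.62 and 1.36 times in replicates 2 and 3 and 1.35 to 1.47 times in adult burn. The light chains were therefore less low than Tnnc1 in adult sham replicate 1. The summed level of 5 fat markers was 310 CPM in that library and 13.1 and 42.0 CPM in the other adult sham libraries, and 299 CPM in adult burn replicate 1, and its part in the slow gene levels was not tested.

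**Figure D2:**
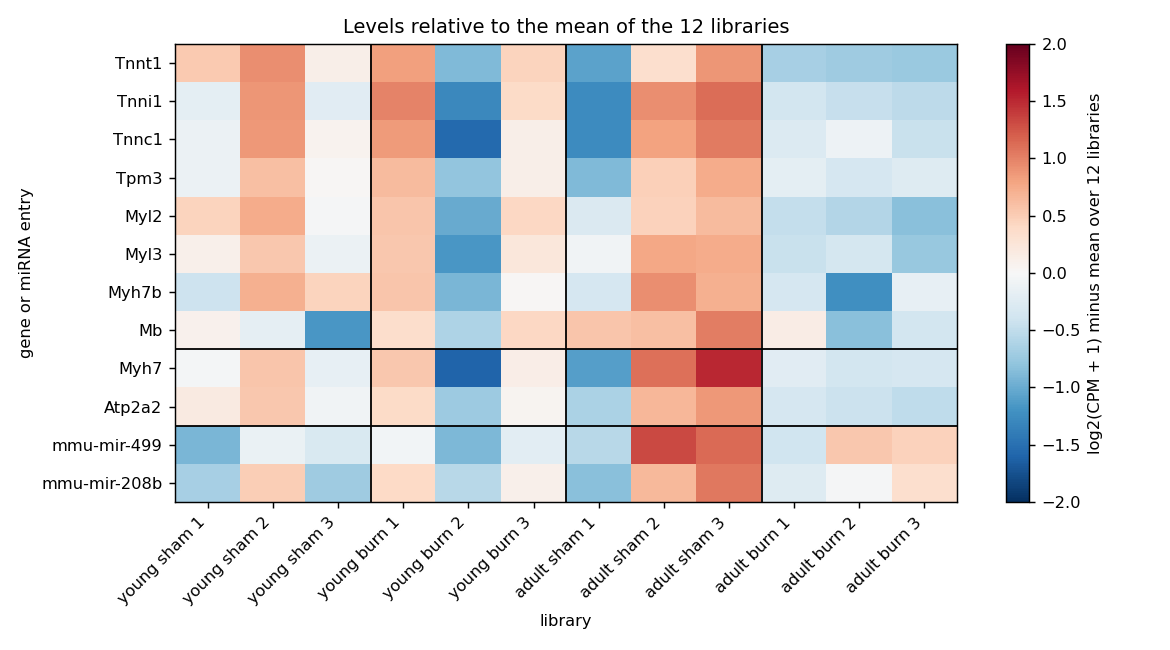
Level of the 8 genes, of Myh7 and Atp2a2, and of the entries mmu-mir-499 and mmu-mir-208b in each of the 12 mice, as log2(CPM + 1) minus the mean over the 12 libraries (red higher, blue lower). Young burn replicate 2 and adult sham replicate 1 are blue in most rows, with Mb above its mean in adult sham replicate 1.

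Whether burn changed these genes in adult mice was read from adult burn against adult sham. Myl2 and Myl3 were lower after burn, and Mb, with a fold change of the same size, did not pass the test. Myl2 was 1.93-fold lower (log2 fold change -0.95, SE 0.21, adjusted p = 0.0457) and Myl3 2.06-fold lower (-1.04, SE 0.20, adjusted p = 0.0259). Mb had a log2 fold change of -1.04 (SE 0.27, adjusted p = 0.0837). For Tnnt1 the estimate was -0.97 (95% interval -1.67 to -0.27, adjusted p = 0.192), for Tnni1 -1.05 (-1.95 to -0.14, adjusted p = 0.281), for Myh7b -1.43 (-2.51 to -0.35, adjusted p = 0.217), for Tnnc1 -0.76 (-1.62 to 0.09, adjusted p = 0.424) and for Tpm3 -0.52 (-1.15 to 0.09, adjusted p = 0.453). Thus edgeR called 2 of the 8 genes, against 0.909% of all tested genes. DESeq2 also called 2, against 2.41% of the 8972 genes to which it gave an adjusted p, and gave Myh7b none. The median log2 fold change of the 8 was -1.01 where that of all tested genes was -0.004. In bulk muscle, fewer slow fibres, less RNA per fibre and a difference in the part of the muscle taken cannot be told apart.

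Both calls depended on which libraries entered. The ranges of adult burn and adult sham did not overlap for Myl2, Myl3 and Mb, which was also true of 19.9% of all tested genes. Without adult sham replicate 1, 4 of the 8 were called beside 0.333% of all tested genes, with Tnnt1 at -1.36 (adjusted p = 0.0102) and Tnni1 at -1.50 (adjusted p = 0.0274) beside Myl2 at -1.18 and Myl3 at -1.27. Without adult sham replicate 2 or 3, or adult burn replicate 2 or 3, edgeR called 0 of the 8 (4 or 5 at an unadjusted p under 0.05), beside 0.199% to 0.634% of all tested genes. When all 12 libraries entered, edgeR called 0 of the 8 (5 at an unadjusted p under 0.05) and DESeq2 0, and edgeR called 0.00806% of all tested genes. The summed level of the 8 heart markers was 18.8 to 21.4 CPM in adult sham and 12.6 to 15.9 CPM in adult burn, with Nppb and Myl7 at 0 in both groups, and that of the 4 bone marrow and neutrophil markers 1.49 to 4.34 and 5.78 to 12.7 CPM, with Elane at 0 in adult burn. The part of either in the result was not tested.

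In young mice no such difference was seen between burn and sham. With 11 libraries edgeR called 0 of the 8 genes in young burn against young sham (1, Mb, had an unadjusted p under 0.05) and DESeq2 0 (0 by unadjusted p), beside 0.664% of all tested genes called by edgeR. Mb had the largest estimate, 0.72 (95% interval 0.10 to 1.35, adjusted p = 0.241). The intervals of Myl2 (-0.41 to 0.57) and Myl3 (-0.27 to 0.68) lay within 1 log2 unit of 0, whereas those of Tnni1 (-0.48 to 1.46) and Tnnc1 (-0.74 to 1.13) reached further. With young burn replicate 2 included, the estimates of Tnnt1, Tnnc1, Tpm3, Myl2 and Myl3 turned from positive to negative, from -0.11 (Tpm3) to -0.28 (Myl2). In that setting 0 of the 8 were called (0 at an unadjusted p under 0.05; DESeq2 0), beside 0.0645% of all tested genes. With 11 libraries 2 of 6 tendon markers were lower in young burn. They were Chad (-2.09, adjusted p = 0.044) and Kera (-2.055, adjusted p = 0.0418). S100a9, a neutrophil marker, was higher (2.43, adjusted p = 0.0447). Tendon markers summed to 321 to 351 CPM in young sham and 83.0 to 174 CPM in young burn, with none at 0. Bone marrow and neutrophil markers summed to 1.22 to 3.17 and 8.42 to 26.8 CPM, with Elane at 0 in young burn. Their part in the result was not tested.

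The burn effect in young mice minus that in adult mice, the interaction, was positive in all 8 estimates, from 0.73 (Tpm3) to 1.77 (Mb). The edgeR test called 0 of the 8 (5 at an unadjusted p under 0.05: Tnnt1, Tnni1, Myl2, Myl3 and Mb) beside 0.0949% of all tested genes, with adjusted p of 0.167 for Mb, 0.198 for Myl3 and 0.291 for Myl2. DESeq2 on the same 11 libraries called these 3 genes, with adjusted p of 0.00664 (Myl3), 0.0374 (Mb) and 0.0416 (Myl2), beside 3.28% of the 1614 genes to which its own filter left an adjusted p. That filter left Tnni1 and Myh7b without an adjusted p. On all 12 libraries both tools called 0 of the 8 (by either, 1, Mb, had an unadjusted p under 0.05), and edgeR called 0% of all tested genes. Without adult burn replicate 1 edgeR called Mb (2.05, adjusted p = 0.0441, beside 0.247% of all tested genes), and without adult sham replicate 1 Myl3 (1.48, adjusted p = 0.0418, beside 0.0634%). Whether the burn effect on these genes was called as different between ages thus turned on the tool and on single libraries.

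Between burned mice of the 2 ages, 3 of the 8 genes were higher in the young and the other 5 did not pass. In young burn against adult burn, Tnnt1 was 2.59-fold higher (log2 fold change 1.37, SE 0.36, adjusted p = 0.0149), Myl2 2.18-fold (1.12, SE 0.23, adjusted p = 0.00401) and Myl3 1.88-fold (0.91, SE 0.22, adjusted p = 0.0111). Tnni1 (1.20, adjusted p = 0.0755), Mb (0.69, adjusted p = 0.105), Myh7b (1.18, adjusted p = 0.147), Tpm3 (0.67, adjusted p = 0.149) and Tnnc1 (0.81, adjusted p = 0.198) did not pass. So 3 of 8 were called, against 20.7% of all tested genes. Both young burn libraries were above all 3 adult burn libraries in all 8 genes, which held in either direction for 53.2% of all tested genes, and this comparison shares its adult burn libraries with the one of adult burn and adult sham. With young burn replicate 2 included, 0 of the 8 were called (2, Myl2 and Tnnt1, at an unadjusted p under 0.05; DESeq2 0), beside 10.8% of all tested genes, while without young burn replicate 1 Myl2 alone was called, beside 7.35%. Only 2 of the 8 heart markers passed the filter on low counts. Tnnt2, which immature muscle also makes, was higher in young burn than in adult burn by 1.83 (adjusted p = 0.00389), while Myl4 stood at -0.26 (adjusted p = 0.385). The 8 heart markers summed to 15.3 to 20.2 CPM in young burn and 12.6 to 15.9 CPM in adult burn. Of the 5 nerve sheath markers 3 were also higher, and the 5 summed to 140 to 345 CPM in young burn and 118 to 163 CPM in adult burn, with none at 0. The part of either marker list in the result was not tested.

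Without injury Mb alone among the 8 was called between the ages, a call that was lost in some settings. Mb was 2.11-fold lower in young sham than in adult sham (log2 fold change -1.08, SE 0.27, adjusted p = 0.0177). With 1 gene of the 8 called, the share was near the 11.8% of all tested genes. The estimates of the other 7 lay between -0.34 (Myl3, Tnni1) and 0.30 (Tnnt1), with adjusted p from 0.293 to 0.914. The intervals were wide for Tnni1 (-1.22 to 0.55) and Myh7b (-1.22 to 0.74) and narrower for Myl2 (-0.34 to 0.53). With all 12 libraries Mb kept its estimate (-1.07) at an adjusted p of 0.0909, so that edgeR called 0 of the 8 (1, Mb, at an unadjusted p under 0.05; DESeq2 1, Mb), beside 3.76% of all tested genes by edgeR and 5.38% by DESeq2. Among the 11 libraries, leaving out adult sham replicate 3 or young sham replicate 3 also ended the call. Markers of other tissues differed in the same comparison: 3 of 5 nerve sheath markers, 2 of 6 tendon markers (Kera and Tnmd) and the skin marker Krt10 were higher in young sham, and the smooth muscle marker Myh11 was lower. Nerve sheath markers summed to 184 to 326 CPM in young sham and 142 to 163 CPM in adult sham, and tendon markers to 321 to 351 CPM and 110 to 260 CPM, with none of either list at 0. The summed skin markers were at 9.74 to 12.2 CPM and 5.89 to 6.58 CPM, with Krt5, Krt14 and Krt1 at 0, and the smooth muscle markers at 72.8 to 98.0 CPM and 90.2 to 117 CPM. Their part in the difference in Mb was not tested.

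**Figure D3:**
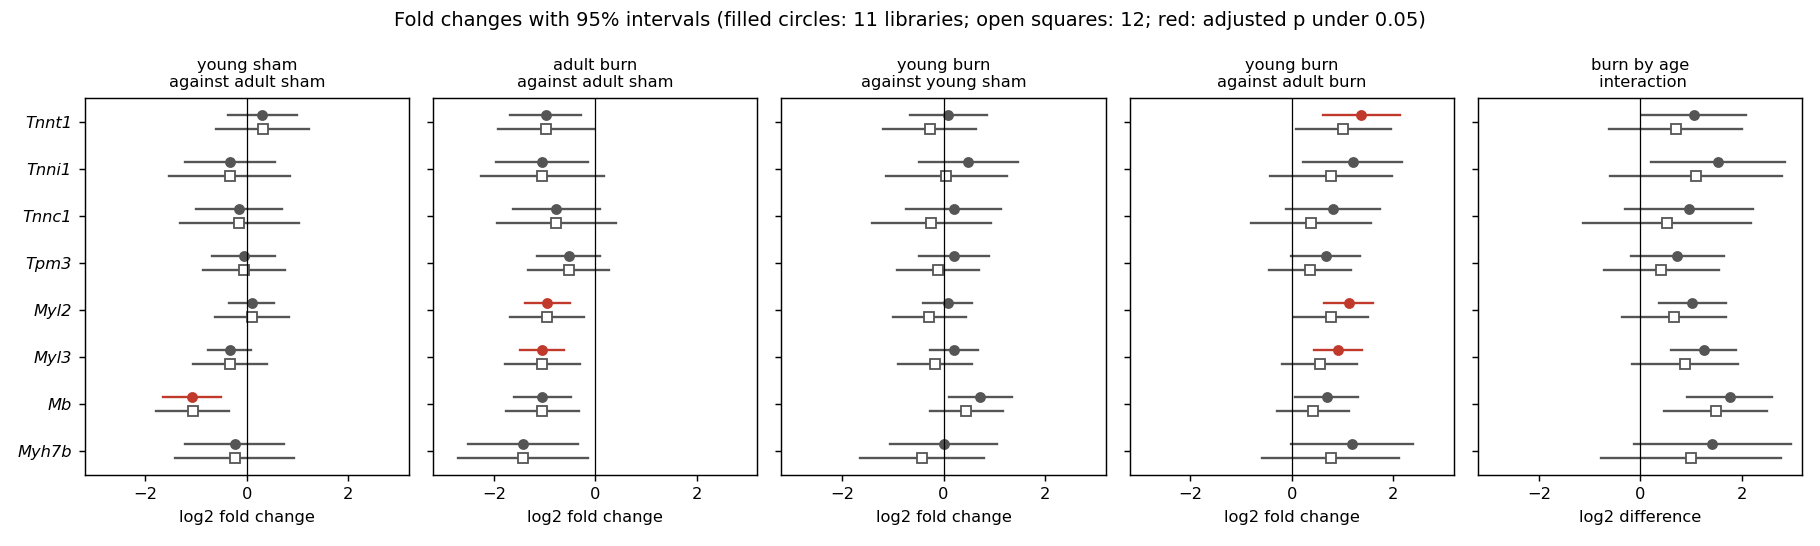
Log2 fold change of each of the 8 genes in the 4 comparisons, and the difference of the burn effects between ages at the right, with 95% intervals, from 11 libraries (filled circles) and from all 12 (open squares), in red where the adjusted p was under 0.05. Red points are Mb in the first panel, Myl2 and Myl3 in the second, and Tnnt1, Myl2 and Myl3 in the fourth, all from 11 libraries.

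Most of these proteins have a fast counterpart, and the share of the slow member in each pair, per kb of exon, sets the slow level against fast muscle in the same library. Shares were small. Slow Tnnt1 made up 0.426 ± 0.243% of Tnnt1 and Tnnt3 in adult sham (SD, n = 3) and 0.188 ± 0.019% in adult burn, and Tnni1 0.285 ± 0.185% and 0.118 ± 0.0208% of Tnni1 and Tnni2. In both pairs the adult sham range reached below the adult burn range. Myl3 made up 3.31 ± 1.06% of Myl3 and Myl1 in adult sham, 1.58 ± 0.282% in adult burn, 1.495 ± 0.590% in young sham and 2.35% in the mean of young burn replicates 1 and 3. Myl2 made up 1.41 ± 0.357% of Myl2 and Mylpf in adult sham, 0.643 ± 0.0981% in adult burn, 0.696 ± 0.306% in young sham and 0.914% in the mean of young burn replicates 1 and 3. For both light chains the adult sham range lay above those of adult burn and young sham. The fast partners differed between ages, and Mylpf, the fast regulatory light chain, was 1.23 higher on the log2 scale than in adult sham (adjusted p = 0.000337) and Myl1, the fast essential chain, was 0.90 higher (adjusted p = 0.00219). Tpm3 made up 1.08 ± 0.473% of Tpm3 and Tpm1 in adult sham and 0.747 ± 0.120% in adult burn, with overlapping ranges. The size of a share depended on the exon lengths. Without division by them, Myl2 made up 2.56% in adult sham and 1.17% in adult burn, and Tnni1 0.68% and 0.283%. Of the group means over 3 libraries, 9 moved by at least 1 SD that way and 11 did not. Tnnc1 has Tnnc2 as its counterpart, but most exon positions of Tnnc2 overlap Ube2c on the other strand and its counts were near 0 in every library, so no share was formed for that pair.

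**Figure D4:**
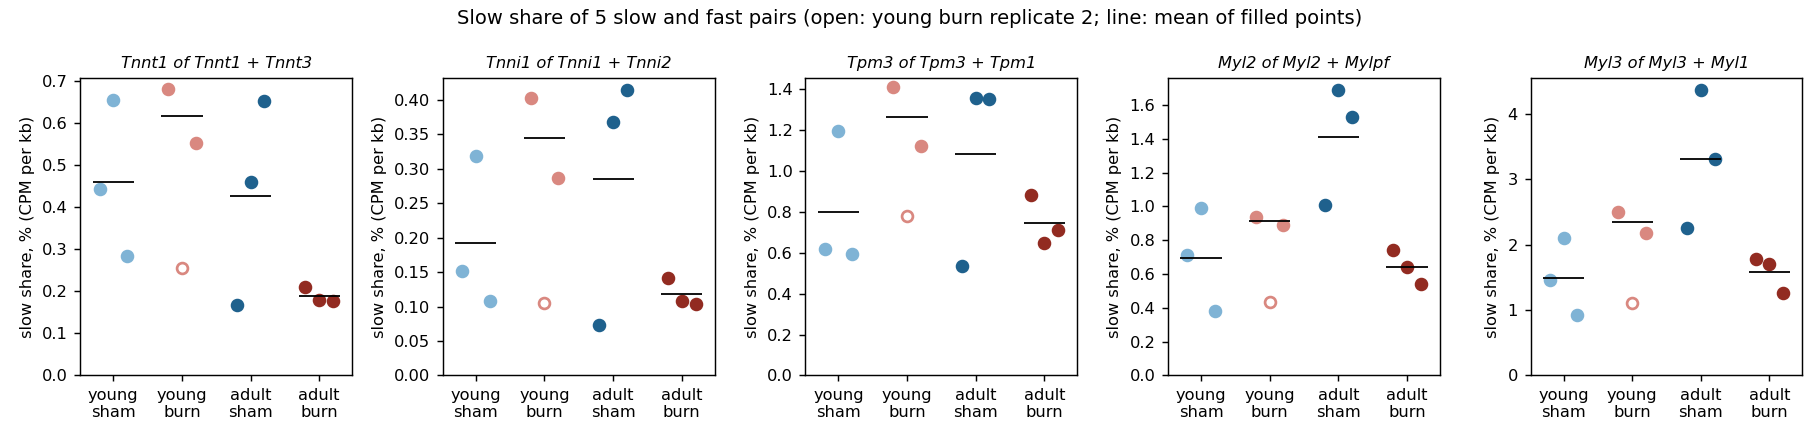
Slow share, in percent of the sum of the slow and the fast member in CPM per kb of exon, for 5 pairs in the 12 mRNA libraries (open point: young burn replicate 2; line: mean of the filled points). Myl2 and Myl3 have their highest group mean in adult sham, and for the pairs of Tnnt1, Tnni1 and Tpm3 adult sham replicate 1 lies below the other adult sham points by more than the whole range of adult burn.

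Of 12 further slow fibre genes, 3 were lower in adult burn than in adult sham, beside 0.909% of all tested genes called, and 9 did not pass. These 3 were Myom3, a protein of the sarcomere's M-band (-1.10, adjusted p = 0.0129), Mybpc1, slow myosin binding protein C (-1.08, adjusted p = 0.0186), and Casq2, a calcium store of the sarcoplasmic reticulum (-0.52, adjusted p = 0.0454). Myh7, the slow myosin heavy chain, had the largest estimate, -1.20 (SE 0.41), with an adjusted p of 0.195. With each group's mean taken out, Mybpc1 and Myom3 correlated over the 11 libraries with Myh7 at r = -0.03 and 0.22. With Myh2, the heavy chain of type IIa fast fibres, they correlated at r = 0.90 and 0.80. The median of the 12 was -0.60, beside -0.004 for all tested genes. In young burn against adult burn 6 of the 12 were higher, beside 20.7% of all tested genes called. They were Casq2 (1.40, adjusted p = 8.48e-06), Myoz2, a protein of the Z-disc (1.23, adjusted p = 0.00264), Myom3 (1.11), Mybpc1 (1.10), Myl6b (1.04) and Lmod2 (0.76), while Pln, the inhibitor of the slow calcium pump, had an estimate of 1.22 (adjusted p = 0.129). In young sham against adult sham Casq2 was higher (0.42, adjusted p = 0.0241) and the stretch-responsive genes Ankrd2 (-1.70, adjusted p = 0.00411) and Csrp3 (-1.59, adjusted p = 0.0306) were lower, and Sln had an estimate of 0.91 (adjusted p = 0.236). Among all tested genes 11.8% were called there by edgeR, and 0.664% in young burn against young sham. Between young burn and young sham edgeR called 0 of the 12 (5 at an unadjusted p under 0.05) and DESeq2 0, and the largest estimates were those of Ankrd2 (1.42, adjusted p = 0.0693), Csrp3 (1.27) and Myl6b (0.70). From all 12 libraries edgeR called 0 of the 12 genes in adult burn against adult sham (7 at an unadjusted p under 0.05) and 1, Casq2, in young burn against adult burn, and in young sham against adult sham Ankrd2 alone. The shares of all tested genes called from 12 libraries were 0.00806%, 10.8% and 3.76%, in that order.

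Fast fibre genes did not move as one group. Of 15, of which 14 were tested, 2 were lower in adult burn than in adult sham, beside 0.909% of all tested genes called. These were the heavy chains of the more oxidative fast fibres, Myh2 (type IIa, -1.53, adjusted p = 0.00327) and Myh1 (type IIx, -1.14, adjusted p = 0.00178). Tnni2, fast troponin I, came next in size with 0.22 (adjusted p = 0.515), and the median of the 14 was 0.06. Against adult burn, young burn had more Myh2 (1.51), Myh1 (1.17), Casq1 (0.62) and Mylpf (0.61) and less Atp2a1, the fast calcium pump (-0.70, adjusted p = 0.0052). These 5 of 14 stood beside 20.7% of all tested genes called. In young sham against adult sham Mylpf, Myl1, Casq1 (0.88) and Pvalb (0.82) were higher, and Myh1 (-0.55) and Atp2a1 (-0.43) were lower. These 6 of 14 stood beside 11.8% of all tested genes called. The young groups gave 0 calls among the 14 by edgeR (11 at an unadjusted p under 0.05) and 4 by DESeq2, beside 0.664% and 1.88% of all tested genes. The largest estimates were those of Pvalb (-0.67, adjusted p = 0.0633 by edgeR), Myh2 (0.63) and Myh1 (0.58). There the median of the 14 was -0.42 and that of the 8 slow genes 0.20. Once young burn replicate 2 was added, edgeR called 0 of the 14 in adult burn against adult sham (2 at an unadjusted p under 0.05). It then called 3 in young sham against adult sham (Mylpf, Myl1 and Pvalb, all higher), so that Casq1, Myh1 and Atp2a1 lost their calls, and 3 in young burn against adult burn (Myh2, Myh1 and Atp2a1), so that Casq1 and Mylpf lost theirs. The shares of all tested genes called from 12 libraries were 0.00806%, 3.76% and 10.8%, in the order of these comparisons.

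Of 16 genes known to control the slow or fast programme, Esrrg, a nuclear receptor active in oxidative muscle, was the 1 called in adult burn against adult sham (-1.39, adjusted p = 0.0179), ahead of Prox1, a homeobox factor of slow fibres (-0.87, adjusted p = 0.142), and Tead1 (-0.50, adjusted p = 0.0794). There 0.909% of all tested genes were called. Esrrg was also lower in young sham than in adult sham (-0.84, adjusted p = 0.0341), as was Mef2d (-0.57, adjusted p = 0.0111), while Ppard had an estimate of -0.54 (adjusted p = 0.075). Esrrg and Mef2d, 2 of the 16, stood beside 11.8% of all tested genes called, a share near their own. Prox1 was higher in young burn than in adult burn (1.16, adjusted p = 0.00934), as was Vgll2 (0.69, adjusted p = 0.0373), whereas Mef2d (-0.46) and Tbx15 (-0.43) were lower and Rcan1 stood at -0.51 (adjusted p = 0.394). Among all tested genes 20.7% were called there by edgeR, and 0.664% in young burn against young sham. For young burn against young sham edgeR called 0 of the 16 (3 at an unadjusted p under 0.05) and DESeq2 0, and Sox6 had the largest estimate, -0.50 (adjusted p = 0.164), followed by Ppard (0.49) and Vgll2 (0.46). Over all 12 libraries edgeR called 0 of the 16 in adult burn against adult sham (3 at an unadjusted p under 0.05) and 0 in young sham against adult sham (4 at an unadjusted p under 0.05). In young burn against adult burn it called 2, Prox1 and Tbx15. The shares of all tested genes called from 12 libraries were 0.00806%, 3.76% and 10.8%, in the order of these comparisons.

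The genes whose pattern was most like the mean log2 CPM of the 8, among protein-coding genes tested over the 11 libraries, were led by Atp2a2, the slow calcium pump (r = 0.97), and Myh7 (r = 0.92), and went on with Ttc13 (0.91), Cpsf6 (0.88), Nacc2 (0.88), Cobll1 (0.86), Slamf9 (0.85), Itgav (0.85), Pcdhb14 (0.84) and Adprhl1 (0.84). Atp2a2 and Myh7 kept this likeness after the group means were taken out (r = 0.98 and 0.97) and with all 12 libraries (0.97 and 0.94), whereas Cpsf6 fell to 0.10 with all 12. Myh7 was at 38.5, 58.7 and 35.4 CPM in young sham, 58.2, 12.4 and 43.7 in young burn, 18.0, 85.9 and 115 in adult sham and 33.5, 30.4 and 31.2 in adult burn. Its levels were again lowest in young burn replicate 2 and adult sham replicate 1.

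The small RNA libraries gave a second reading of the same mice. The entry mmu-mir-499 was at 53.6, 92.8 and 82.2 CPM of miRNA counts in young sham, 98.3, 54.0 and 88.1 in young burn, 68.6, 255 and 225 in adult sham and 76.6, 149 and 141 in adult burn. The entry mmu-mir-208b was at 5.27, 13.0 and 5.07 in young sham, 12.03, 5.74 and 9.69 in young burn, 4.55, 14.6 and 19.7 in adult sham and 7.34, 8.78 and 11.6 in adult burn. Adult sham replicate 1 was the lowest adult library in both entries, as it was for Myh7 and Tnni1 in the mRNA. Of the pair, mmu-mir-499 was lower in young sham than in adult sham (log2 fold change -1.26, SE 0.37, adjusted p = 0.00727 over 299 entries in 12 libraries), where 56.2% of all tested entries were called. Scaled by library size alone the estimate was -0.72 (adjusted p = 0.0932), as that scaling moved the median of all entries to 0.52. The edgeR test called 0 of the 2 in adult burn against adult sham (0 at an unadjusted p under 0.05; DESeq2 0), beside 0% of all tested entries, and 0 of the 2 in young burn against young sham (0 at an unadjusted p under 0.05; DESeq2 0), likewise beside 0%. In young burn against adult burn it called 0 of the 2 (0 at an unadjusted p under 0.05; DESeq2 0) beside 55.2% of all tested entries, with estimates of -0.61 (95% interval -1.38 to 0.15) for mmu-mir-499 and -0.02 (-1.01 to 0.97) for mmu-mir-208b.

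Each miRNA was set against its host gene over the 12 mice on the log2(CPM + 1) scale. Myh7 and mmu-mir-208b rose together (Pearson r = 0.81, permutation p = 0.00102, adjusted 0.00204 over the 2 relations; Spearman rho = 0.76, permutation p = 0.00525, adjusted 0.0105). Without the mice furthest from the median of Myh7, adult sham replicate 3 and young burn replicate 2, r was 0.75, and with group means taken out it was 0.89. For Myh7b and mmu-mir-499 Pearson r was 0.47 (permutation p = 0.125, adjusted 0.125) and Spearman rho 0.59 (permutation p = 0.0492, adjusted 0.0492), so the 2 measures fell on different sides of 0.05. Without adult burn replicate 2 and adult sham replicate 2, the mice furthest from the median of Myh7b, r was 0.67, and with group means taken out it was 0.67. Adult burn replicate 2 had the lowest Myh7b level of the 12 and a mmu-mir-499 level of 149 CPM.

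**Figure D5:**
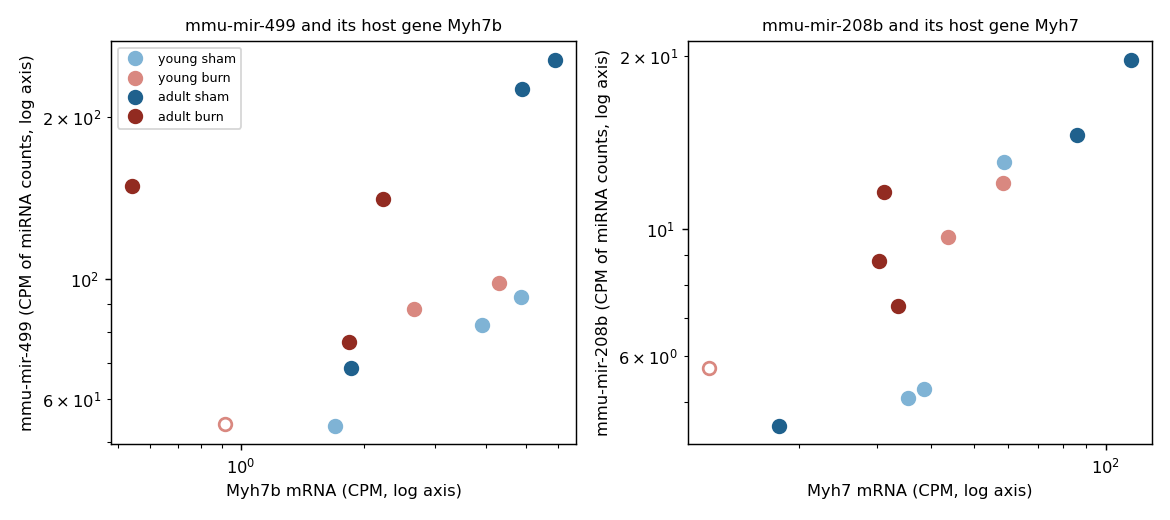
CPM of the miRNA entries mmu-mir-499 and mmu-mir-208b against CPM of their host genes Myh7b and Myh7 in the 12 mice (log axes, colour by group, open point for young burn replicate 2). The points of Myh7 and mmu-mir-208b follow a common rise (r = 0.81), while on the left adult burn replicate 2 lies far from the rest.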

How the data were processed

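Poly-A RNA and small RNA of 12 mice were measured. Both deposited tables hold raw counts, which the authors made from reads aligned to GRCm38 with STAR (2.7.5c in the submitters' processing notes), with its GeneCounts option and Gencode M25 for mRNA, and with mirDeep2 trimming and featureCounts (2.0.1) for miRNA. The strand used in counting was not stated, so reads in exons shared with a gene on the other strand (Gm49540 and Apol6 for Mb, Pth1r for Myl3, Ccdc63 for Myl2, Trpc4ap for Myh7b) are uncertain.

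Counts were scaled by TMM, filtered with filterByExpr (minimum count 10, total 15) and tested in edgeR 4.0.16 (R 4.3.3) with a mean per group, in two-sided tests adjusted over all genes tested by the Benjamini-Hochberg method. The mRNA fit used 11 libraries, without young burn replicate 2, and the miRNA fit 12. Alternatives were DESeq2 1.42.0, all 12 libraries, other scalings, no filter, a replicate block, the compared groups alone and each library left out. Slow shares were also formed from counts without division by exon length. Log2 CPM used a prior count of 2. Exon lengths, introns and overlaps came from Gencode M21, also on GRCm38, and sequences from RefSeq. Correlations of miRNA and host gene were tested with 100000 permutations. The fits were tested on simulated data. Each group enters more than 1 comparison, so the comparisons share libraries. P-values of the fits are set against the spread between mice of a group, of which there were 3 at most, with 1 estimate of the spread shared by all groups. The permutation p-values are for r and rho over all 12 mice, differences between groups included.

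All 8 genes are named, with the genes of a list that were called or had the 3 largest changes and the 10 protein-coding genes with the highest r. The values of 1 controlling gene and of single nerve sheath markers are not reported here. Lists held 12 slow, 15 fast and 16 controlling genes and 47 tissue markers. Members, lists and tests were chosen with earlier results of these data known.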

Additional observations from a re-analysis of the deposited data

Results flagged for a closer look

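The burn effect differed between ages, by edgeR's test of the interaction in 11 libraries, for 4 listed genes that are not among the 8. They were 2 of 12 slow, 2 of 14 fast and 0 of 16 controlling genes tested, beside 0.0949% of all tested genes. From these same data the study had named Myh2, Myh1 and Myom3 as lower in adult burn but not in young burn. Young minus adult, the difference was 2.16 on the log2 scale for Myh2 (SE 0.309, adjusted p = 0.0127), 1.72 for Myh1 (SE 0.208, adjusted p = 0.00641), 1.49 for Myom3 (SE 0.262, adjusted p = 0.0475) and 0.987 for Casq2 (SE 0.163, adjusted p = 0.0341). With all 12 libraries none of the 4 was called, and with the replicate number as a block Casq2 (adjusted p = 0.082) and Myom3 (adjusted p = 0.07) were not. Dixon's test for a single far value was not used, as no group held more than 3 mice.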

How the results depend on the processing

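No source said that replicate numbers pair mice. Same-numbered libraries had deviations correlated at -0.20 to 0.14 over 12 pairs, which in groups of 3 mice cannot exclude a pairing. With the replicate block 1 member was called in adult burn against adult sham instead of 2, beside 0.569% of all genes tested (Myl3, with Myl2 at an adjusted p of 0.0804). Myh7b stood at 0.183 in young burn against young sham and mmu-mir-208b at 0.034 in young burn against adult burn, and the block changed no other count of members by over 1.5 times. The number of the 8 genes called in young sham against adult sham was 0 with all 12 libraries, 2 with no filter and 0 to 1 with a library left out (beside 3.76%, 6.73% and 4.49% to 14.1% of all genes tested). In adult burn against adult sham it was 0 with all 12 libraries by edgeR and by DESeq2 (the latter chosen after the data were seen), 1 by library size alone, 8 with no filter and 0 to 4 with a library left out (the last 3 beside 0.53%, 2% and 0.199% to 1.28%). In young burn against young sham it was 2 with no filter (beside 2.11%), and in young burn against adult burn 0 with all 12 libraries by either tool, 7 with the compared groups alone, 7 with no filter and 1 to 4 with a library left out (the last 3 beside 21.4%, 10.1% and 7.35% to 20.6%). For the interaction it was 3 by DESeq2, 7 with no filter and 0 to 1 with a library left out (beside 3.28%, 0.859% and 0.00768% to 0.247%). Of the miRNA pair, 0 were called in young sham against adult sham by library size alone (beside 59.9% of entries) and 0 to 2 with a library left out, and 1 with no filter in young burn against adult burn (beside 19.4%). The cause of these shifts was not tested.

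Direction turned where estimates lay near 0. With a library left out, the log2 fold change in young sham against adult sham ran from -0.0792 to 0.768 for Tnnt1, -0.815 to 0.0392 for Tnni1, -0.591 to 0.231 for Tnnc1, -0.135 to 0.282 for Myl2, -0.415 to 0.253 for Tpm3 and -0.604 to 0.0797 for Myh7b. In young burn against young sham it ran from -0.103 to 0.327 for Tnnt1, -0.222 to 0.569 for Tnnc1, -0.112 to 0.27 for Myl2, -0.0699 to 0.455 for Tpm3, -0.399 to 0.335 for Myh7b, -0.115 to 0.322 for mmu-mir-499 and -0.0871 to 0.821 for mmu-mir-208b, and in young burn against adult burn from -0.268 to 0.288 for mmu-mir-208b. With all 12 libraries, by edgeR and DESeq2 in turn, young burn against young sham gave -0.273 and -0.267 for Tnnt1, -0.242 and -0.236 for Tnnc1, -0.282 and -0.277 for Myl2, -0.165 and -0.16 for Myl3 and -0.109 and -0.102 for Tpm3. By library size alone Myl2 stood at -0.0165 in young sham against adult sham and Myh7b at 0.149 in young burn against young sham, and mmu-mir-208b in young burn against adult burn stood at 0.348, with 0.0159 by DESeq2, 0.0103 with its size factors and 0.0702 with no filter. All 8 members kept their direction in adult burn against adult sham, young burn against adult burn and the interaction under every alternative. Where 1 library of a group was left, it was assumed to vary like the other groups. Myh7b, at 3 to 26 counts, is limited by depth.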
